A study of Mus musculus with 6 samples.

Results

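Splicing regulators were compared between osteoblasts, the cells that lay down bone, and chondrocytes, the cells of cartilage, in newborn C57BL/6 mice. The members were taken by gene symbol: every numbered Srsf gene, every Hnrnp gene, Tra2a and Tra2b, and the Rbfox, Mbnl, Celf, Ptbp, Qk, Nova and Esrp genes that were listed by name. This gave 47 of the 23364 gene symbols in the deposited RNA-seq table, carried by 107 of its 31055 transcripts. They were 11 Srsf, 2 Tra2, 18 Hnrnp, 3 Rbfox, 3 Mbnl, 2 Celf, 3 Ptbp, 2 Nova and 2 Esrp genes and Qk. A single transcript was listed for 21 members, and 26 had several, up to 8. Choosing the members used no measured value.

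The osteoblast group held 3 libraries of calvarial cells sorted for green fluorescent protein (GFP) and labelled Sp7 positive. The chondrocyte libraries, also 3, were made from wild-type cells of the rib cartilage, for which no sort is labelled. Both came from mice at postnatal day 1, and no mutation or treatment is labelled in either. The labels do not name the allele that carries GFP, and they do not say whether replicates came from separate animals or pools, so p-values measure only the spread between these samples. Cell type, skeletal site, sorting, genotype and digestion enzyme all go with the group and cannot be told apart.

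Most mouse genes yield more than 1 mature RNA, because exons can be joined in different ways. SR proteins, encoded by the Srsf genes, bind exons and mostly favour their inclusion. hnRNP proteins coat the nascent transcript and often favour skipping. Tra2 proteins act beside SR proteins. Rbfox, Mbnl, Celf, Ptbp, Nova, Esrp and Qk proteins are regulators whose levels differ between tissues, and each binds its own short RNA motif: Nova is best known from neurons, Esrp from epithelia, and Mbnl and Celf from opposing programmes in muscle and heart. Many of these genes limit their own protein by splicing their own RNA into a form with an early stop codon, through a "poison exon" or a kept intron. Cells then destroy much of that form by nonsense-mediated decay (NMD).

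These 5 stretches are printed because the transcripts that hold them took different shares of their gene's RNA in the 2 cell types. They were read from GENCODE M21 and its genome build GRCm38, by matching the RefSeq identifiers in the table. The deposited values were made on build mm9, so these positions describe the annotation and not the authors' alignment. For the first 3 stretches the lower-case letters run from the start of the exon or intron, and the capitals are the stop codon in the reading frame of the transcript. For the last 2 the capitals are the exon, with 15 bases of each neighbouring exon in lower case. Each reads 5′ to 3′ on the gene's strand.
Srsf3 poison exon, chr17:29039454-29039909, plus strand, 456 bases: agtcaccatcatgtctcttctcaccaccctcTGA
Srsf7 poison exon, chr17:80204622-80205081, minus strand, 460 bases: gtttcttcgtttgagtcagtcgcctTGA
Srsf1 kept intron, chr11:88049216-88049411, plus strand, 196 bases: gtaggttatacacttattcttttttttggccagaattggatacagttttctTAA
Ptbp1 exon, chr10:79860117-79860194, plus strand, 78 bases: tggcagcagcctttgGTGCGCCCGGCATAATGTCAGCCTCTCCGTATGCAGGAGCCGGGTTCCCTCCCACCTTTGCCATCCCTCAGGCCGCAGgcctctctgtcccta
Mbnl2 exon, chr14:120395712-120395765, plus strand, 54 bases: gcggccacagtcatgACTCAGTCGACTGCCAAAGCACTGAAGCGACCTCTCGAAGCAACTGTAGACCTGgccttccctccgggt
The Srsf3 exon adds 31 coding bases before its stop, the Srsf7 exon 25 and the Srsf1 intron 51. The Ptbp1 and Mbnl2 exons are coding throughout.

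The values are RPKM, reads scaled to transcript length and sequencing depth, summed here over the transcripts of a symbol. Low values move in steps from which depth was estimated: 1 RPKM in a 2 kb transcript stood for 53.7 to 69.0 reads in the osteoblast libraries and 66.7 to 71.6 reads in the chondrocyte libraries. All 10 osteoblast markers were higher in osteoblasts, with summed RPKM of 20700 to 22600 in osteoblasts and 2280 to 7780 in chondrocytes. All 11 chondrocyte markers were lower, at 258 to 297 in osteoblasts and 32800 to 57600 in chondrocytes. Bglap, Bglap2, Dmp1, Phex and Ifitm5 were under 1 RPKM in every chondrocyte library, and Sox5, Matn1 and Matn3 in every osteoblast library. These genes passed the filter through 1 cell type alone, which fixes their direction. Proliferation genes were higher for 18 of 20 as deposited, where 55.5% of all genes were. Under median-of-ratios scaling, which rescales libraries by their middle genes, 7 of 20 were higher, where 33.1% of all genes were. Their sums were 264 to 305 RPKM in osteoblasts and 87.9 to 174 RPKM in chondrocytes. Chondrocyte replicate 2 stood apart from the other 2 in this list: Mki67, a marker of dividing cells, had 8.49 RPKM there, against 0.911 and 1.76 RPKM in chondrocyte replicates 1 and 3. Myeloid and osteoclast markers summed to 236 to 250 RPKM in osteoblasts and 49.6 to 176 RPKM in chondrocytes. Most of that sum was Ctsk, with 196 to 205 RPKM in osteoblasts and 45.0 to 162 RPKM in chondrocytes, which was not called under that scaling (adjusted p = 0.0761). All 11 tested markers of this list were higher as deposited, where 55.5% of all genes were. All but Ctsk stayed higher under median-of-ratios scaling, where 33.1% of all genes were. However, Cd68, Emr1, Mmp9 and Itgb3 were under 1 RPKM in every chondrocyte library. They passed the filter on osteoblast values alone, which fixes their direction. Of 18 dissociation stress genes 7 were higher and 3 lower as deposited, where 55.5% and 13.5% of all genes were. Under median-of-ratios scaling 4 were higher and 6 lower, where 33.1% and 29.0% of all genes were. Their sums were 2330 to 3370 RPKM in osteoblasts and 1960 to 3730 RPKM in chondrocytes. Tendon and fibroblast markers summed to 931 to 1580 RPKM in osteoblasts and 1020 to 3410 RPKM in chondrocytes. Among the chondrocyte libraries, each gene of that list was highest in replicate 3. Postn had 2370 RPKM there, against 802 and 738 RPKM in chondrocyte replicates 1 and 2. Col1a1, an osteoblast marker, had 7770 RPKM in chondrocyte replicate 3, against 2270 and 2260 RPKM in chondrocyte replicates 1 and 2. The part of these lists in the member results was not tested.

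The members' RPKM summed to 2000 ± 105 per osteoblast library and 1600 ± 89 per chondrocyte library (SD, n = 3 each), which was 0.641% ± 0.0136 and 0.575% ± 0.0183 of all RPKM. Of the 47 members, 38 reached RPKM of 1 in at least 3 libraries and were tested with limma on log2(RPKM + 1). Differences are osteoblast minus chondrocyte, and a gene was called at an adjusted p under 0.05 (Benjamini-Hochberg over all 11218 tested genes). With the RPKM as deposited, 17 members were higher in osteoblasts, 4 were lower and 17 were not called. Over all tested genes 55.5% were higher and 13.5% lower. Without chondrocyte replicate 2, 19 members were higher and 5 lower, in a fit for which shares of all genes were not counted. The groups did not overlap for 19 members with osteoblasts higher and 4 with osteoblasts lower, where 60.4% and 15.3% of all genes did not. The median difference was 0.28 over the members and 0.43 over all genes. In bulk RNA, fewer cells of a type and less RNA per cell cannot be told apart.

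The balance between higher and lower depended on how the libraries were scaled. RPKM is set by each library's total, in which single genes can weigh heavily: Col2a1 had a mean of 30.8 RPKM in osteoblasts and 37400 RPKM in chondrocytes. Median-of-ratios scaling, which rests on the middle of all genes, moved the median of all genes by -0.38 on the log2 scale. Under it 6 members were higher, 14 were lower and 18 were not called, where 33.1% of all genes were higher and 29.0% lower. The median difference was then -0.14 over the members and 0.05 over all genes. Under all of 5 scalings 6 members were higher, namely Celf1, Hnrnpab, Hnrnpm, Rbfox2, Srsf1 and Srsf2, where 32.1% of all genes were. Lower under all 5 were 4 members, Mbnl1, Ptbp2, Srsf10 and Srsf5, where 13.5% of all genes were. For single genes the value under median-of-ratios scaling is given wherever it changes the call.

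**Figure D1:**
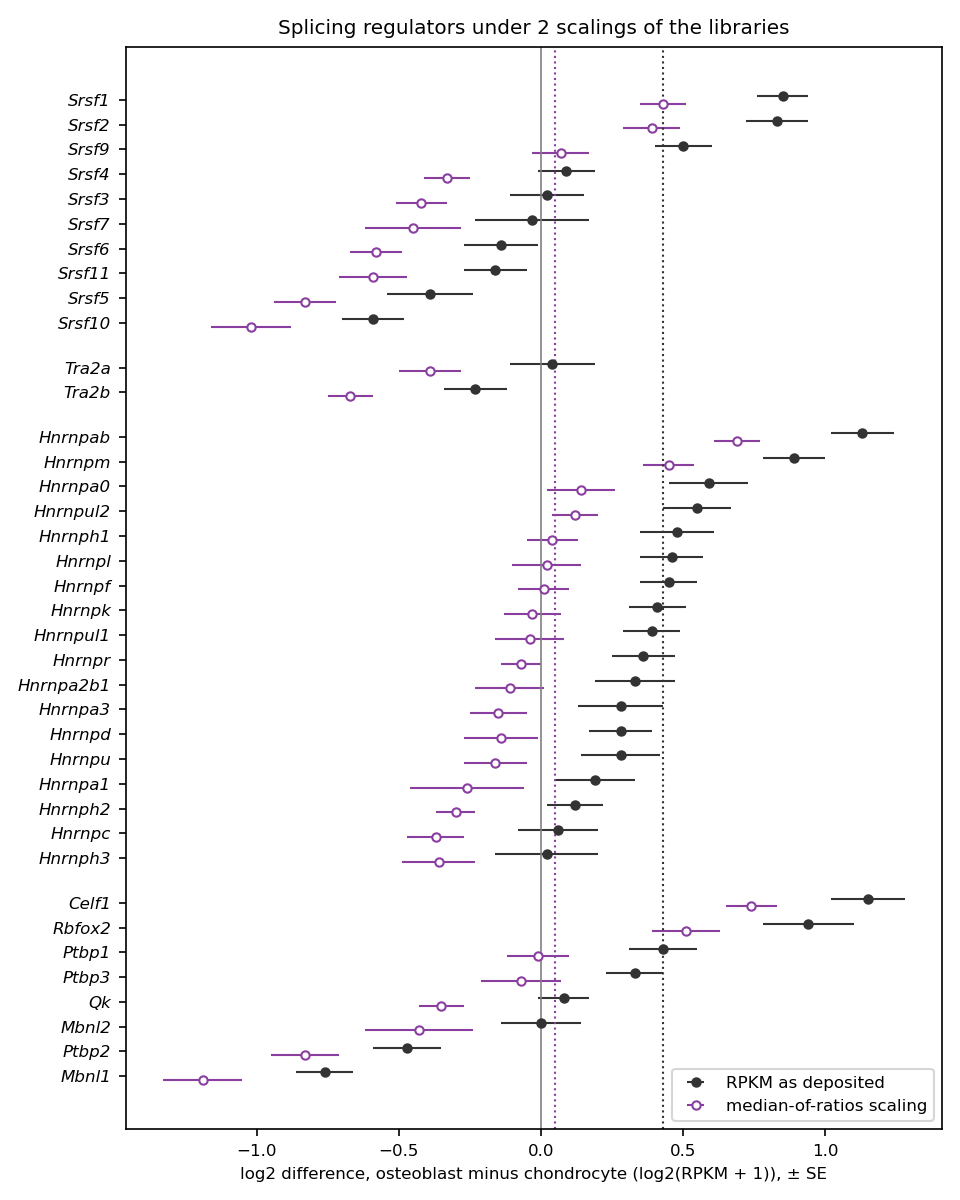
Difference between osteoblasts and chondrocytes for the 38 tested members, as log2(RPKM + 1) ± SE (n = 3 libraries each), grouped as Srsf, Tra2, Hnrnp and tissue-type regulators from top to bottom. Filled points are RPKM as deposited and open points median-of-ratios scaling; dotted lines are the medians of all tested genes, 0.43 and 0.05, and the members lie on both sides of them.

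Among the tissue-type regulators, 4 of the 8 tested members were higher in osteoblasts and 2 were lower, where 55.5% and 13.5% of all genes were. Under median-of-ratios scaling 2 were higher and 3 lower, where 33.1% and 29.0% of all genes were. Celf1, which binds GU-rich RNA, had 16.4, 17.1 and 14.5 RPKM in osteoblasts and 6.63, 5.60 and 7.92 RPKM in chondrocytes. The groups did not overlap, and every osteoblast library exceeded every chondrocyte library. Its mean was 2.38-fold higher in osteoblasts (log2 difference 1.15 ± 0.13, SE; adjusted p = 0.000235, limma). Rbfox2, which binds UGCAUG and is the main Rbfox gene outside nerve and muscle, had 33.1, 31.9 and 30.5 RPKM in osteoblasts and 16.1, 12.6 and 20.5 RPKM in chondrocytes. It too was higher in every osteoblast library, with chondrocyte replicate 2 the lowest of all 6 (1.94-fold; log2 difference 0.94 ± 0.16; adjusted p = 0.00156). Tested singly, 5 of 5 Rbfox2 transcripts and 3 of 3 Celf1 transcripts were called higher as deposited, where 52.2% of all transcripts were. Under median-of-ratios scaling the calls of Rbfox2 NM_001110827 and NM_001110830 were lost (adjusted p = 0.420 and 0.130).

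Mbnl1, which promotes mature-tissue splicing and opposes Celf1 at many muscle exons, went the other way. It had 21.2, 19.4 and 21.1 RPKM in osteoblasts and 36.3, 38.5 and 31.9 RPKM in chondrocytes. Every osteoblast library lay below every chondrocyte library, and the mean in osteoblasts was 0.579 of that in chondrocytes (log2 difference -0.76 ± 0.10; adjusted p = 0.000505). Its close relative Mbnl2 had 35.3, 33.1 and 31.0 RPKM in osteoblasts and 29.5, 40.7 and 29.9 RPKM in chondrocytes. These groups overlapped, and the difference was 0.00 ± 0.14 (adjusted p = 0.986). Ratios between members do not depend on scaling, and 4 were taken after the values had been seen, so they are given without a test. The ratio of Celf1 to Mbnl1 was 0.781 ± 0.099 in osteoblasts and 0.192 ± 0.0518 in chondrocytes, and that of Rbfox2 to Mbnl1 was 1.55 ± 0.102 in osteoblasts and 0.471 ± 0.157 in chondrocytes. The ratio of Mbnl1 to Mbnl2 was 0.623 ± 0.0519 in osteoblasts and 1.08 ± 0.143 in chondrocytes.

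Ptbp1, the widely expressed polypyrimidine tract binding protein, was among the most abundant members, with 99.4, 118 and 104 RPKM in osteoblasts and 75.9, 74.4 and 86.6 RPKM in chondrocytes. It was called higher (log2 difference 0.43 ± 0.12; adjusted p = 0.0130), but the difference was -0.01 under median-of-ratios scaling, and without osteoblast replicate 2 its adjusted p was 0.0613. Ptbp2, the paralog that replaces Ptbp1 in maturing neurons, had 4.01, 4.27 and 3.09 RPKM in osteoblasts and 5.28, 5.89 and 5.57 RPKM in chondrocytes. It was lower in every osteoblast library, by a log2 difference of -0.47 ± 0.12 (adjusted p = 0.0112). The ratio of Ptbp2 to Ptbp1 was 0.0355 ± 0.00531 in osteoblasts and 0.0710 ± 0.00758 in chondrocytes. Neural markers summed to 12.2 to 14.0 RPKM in osteoblasts and 37.4 to 57.3 in chondrocytes. S100b, which cartilage also expresses, made up most of that sum in chondrocytes, with 3.34 RPKM in osteoblasts and 45.1 RPKM in chondrocytes. Neuronal markers did not share 1 direction: Tubb3 averaged 7.29 RPKM in osteoblasts and 0.0392 RPKM in chondrocytes, Stmn2 averaged 0.731 RPKM in osteoblasts and 0.0504 RPKM in chondrocytes, and Map2 averaged 0.162 RPKM in osteoblasts and 1.53 RPKM in chondrocytes. In every library 5 of the 14 neural markers were below 0.1 RPKM. The part of neural RNA in the Ptbp2 result was not tested.

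Ptbp3, a further paralog, averaged 9.35 ± 0.562 RPKM in osteoblasts and 7.23 ± 0.716 RPKM in chondrocytes (log2 difference 0.33; adjusted p = 0.0221). The difference was -0.07 under median-of-ratios scaling. Its adjusted p was 0.0793 without osteoblast replicate 1, 0.0792 without osteoblast replicate 3, 0.0721 without chondrocyte replicate 1 and 0.0583 without chondrocyte replicate 3. Qk, which encodes the RNA-binding protein Quaking, stood at nearly the same level in all libraries, with 26.9, 25.2 and 26.0 RPKM in osteoblasts and 24.8, 23.8 and 25.1 RPKM in chondrocytes. The osteoblast libraries lay just above the chondrocyte ones and no call was made (log2 difference 0.08 ± 0.09; adjusted p = 0.411). Under median-of-ratios scaling Qk was called lower, at -0.35 (adjusted p = 0.00926).

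The 9 members that were not tested stayed under 1 RPKM in all libraries. Celf2, a relative of Celf1, was highest among them, with 0.843, 0.842 and 0.752 RPKM in osteoblasts and 0.109, 0.124 and 0.232 RPKM in chondrocytes. Srsf12 averaged 0.612 RPKM in osteoblasts and 0.298 RPKM in chondrocytes, and Mbnl3 averaged 0.526 RPKM in osteoblasts and 0.391 RPKM in chondrocytes. For these 3 genes the groups did not overlap, with osteoblasts higher. Rbfox1, which is prominent in brain and muscle, averaged 0.0362 RPKM in osteoblasts and 0.126 RPKM in chondrocytes. The neuronal regulators Nova1, Nova2 and Rbfox3 reached at most 0.0594, 0.123 and 0.0290 RPKM in any library. The epithelial regulator Esrp2 reached 0.0223 RPKM, and Esrp1 was listed in every library at 0.0001 RPKM, the lowest value in the table.

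**Figure D2:**
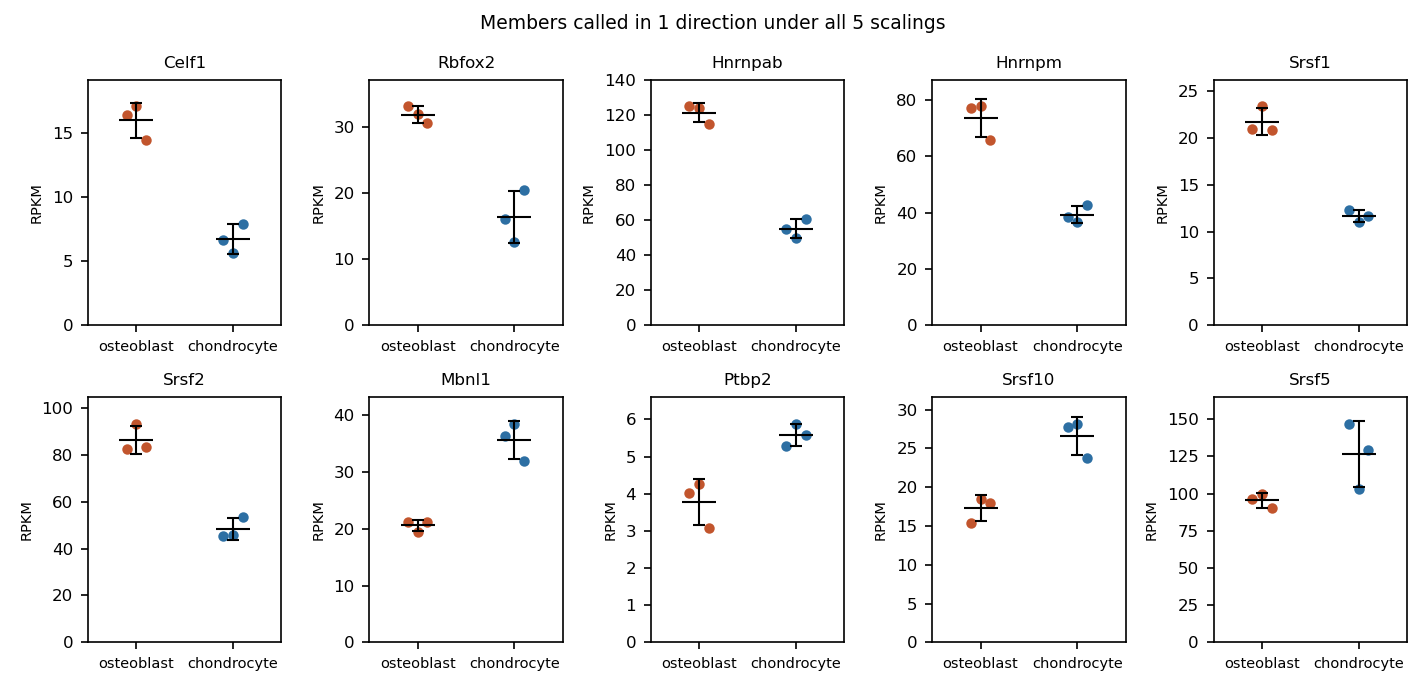
RPKM in each library for the 10 members called in the same direction under all 5 scalings, osteoblasts left and chondrocytes right; points are the 3 libraries of each group and bars the mean ± SD. The groups do not overlap in any panel, from Celf1 at 16.0 against 6.72 RPKM to Srsf5 at 95.4 against 127 RPKM.

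Of 10 tested Srsf genes, which encode SR proteins, 3 were higher in osteoblasts, 2 lower and 5 not called, where 55.5% of all genes were higher and 13.5% lower. Under median-of-ratios scaling 2 were higher and 6 lower, where 33.1% and 29.0% of all genes were. Srsf1, the founding SR protein, had 21, 23.4 and 20.9 RPKM in osteoblasts and 12.3, 11.0 and 11.7 RPKM in chondrocytes. Srsf2, also called SC35 and a marker of nuclear speckles, had 82.3, 93.3 and 83.3 RPKM in osteoblasts and 45.4, 45.8 and 53.6 RPKM in chondrocytes. The groups did not overlap for either gene, and their log2 differences were 0.85 ± 0.09 (adjusted p = 0.000197) and 0.83 (adjusted p = 0.000517). Srsf9 was called higher as deposited, with 41.0 ± 4.23 RPKM in osteoblasts and 28.5 ± 0.359 RPKM in chondrocytes, but its difference under median-of-ratios scaling was 0.07 (adjusted p = 0.559).

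Srsf10, whose protein represses splicing when it is dephosphorylated, had 15.4, 18.5 and 18.0 RPKM in osteoblasts and 27.8, 28.2 and 23.8 RPKM in chondrocytes. It was lower in every osteoblast library (log2 difference -0.59 ± 0.11; adjusted p = 0.00256). Srsf5 had 96.3, 99.8 and 90.2 RPKM in osteoblasts and 147, 103 and 129 RPKM in chondrocytes. The groups just failed to meet, and the call was narrow (log2 difference -0.39 ± 0.15; adjusted p = 0.0450). It was held only without chondrocyte replicate 2 (adjusted p = 0.00390). With any other library left out, the adjusted p was 0.0851 without chondrocyte replicate 3, 0.0867 without osteoblast replicate 2, 0.109 without osteoblast replicate 1, 0.128 without chondrocyte replicate 1 and 0.130 without osteoblast replicate 3.

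The other Srsf genes and both Tra2 genes overlapped between the groups. Srsf3, Srsf4, Srsf6, Srsf7 and Srsf11 had log2 differences between -0.16 and 0.09 with adjusted p of 0.233 to 0.920, at means of 22.7 to 47.0 RPKM in osteoblasts and 21.1 to 52.2 RPKM in chondrocytes. Tra2b averaged 35.0 ± 2.68 RPKM in osteoblasts and 41.4 ± 3.86 RPKM in chondrocytes, and Tra2a 21.4 ± 3.07 RPKM in osteoblasts and 20.8 ± 3.36 RPKM in chondrocytes, with neither called. Without chondrocyte replicate 2 Tra2b was called lower (adjusted p = 0.0269). Median-of-ratios scaling called Srsf3, Srsf4, Srsf6, Srsf11, Tra2a and Tra2b lower, at -0.67 to -0.33 on the log2 scale.

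The hnRNP genes gave 3 of the 5 members of highest mean RPKM. As deposited, 10 of 18 were called higher in osteoblasts, where 55.5% of all genes were. All 18 differences were above 0, as were those of 8431 of all 11218 tested genes. Under median-of-ratios scaling 2 were higher and 3 lower, where 33.1% and 29.0% of all genes were. Under that scaling 7 of the 18 differences were above 0, as were those of 5969 of all 11169 tested genes. Hnrnpab, which binds AU-rich RNA and also acts in transcription and transport, had 125, 124 and 115 RPKM in osteoblasts and 55.0, 49.6 and 60.7 RPKM in chondrocytes. Hnrnpm, a repressor and activator of alternative exons that is known for its part in the splicing of Fgfr2 and Cd44, had 77.2, 77.8 and 65.9 RPKM in osteoblasts and 38.6, 36.5 and 42.6 RPKM in chondrocytes. Both were higher in every osteoblast library, with log2 differences of 1.13 ± 0.11 (adjusted p = 0.000122) and 0.89 (adjusted p = 0.000378). Hnrnpab was 2.21-fold higher, and both of its transcripts were called higher singly.

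The 8 other hnRNP genes called higher with the deposited scaling were Hnrnpa0, Hnrnpf, Hnrnph1, Hnrnpk, Hnrnpl, Hnrnpr, Hnrnpul1 and Hnrnpul2, at log2 differences of 0.36 to 0.59. None of these was called under median-of-ratios scaling, where they lay between -0.07 and 0.14 with adjusted p of 0.228 to 0.959. Hnrnpk, a poly(C)-binding protein and the most abundant member, had 161, 166 and 168 RPKM in osteoblasts and 121, 120 and 131 RPKM in chondrocytes. Hnrnpa0 had 158, 125 and 116 RPKM in osteoblasts and 89.7, 82.4 and 91.0 RPKM in chondrocytes. The Hnrnpr call was lost without any of the osteoblast libraries (adjusted p = 0.0895, 0.0570 and 0.0608 without replicates 1, 2 and 3), and the Hnrnph1 call without osteoblast replicate 2 (adjusted p = 0.0557).

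Hnrnpa2b1, a core hnRNP protein, had 147, 162 and 133 RPKM in osteoblasts and 137, 102 and 113 RPKM in chondrocytes. The groups overlapped and it was not called (log2 difference 0.33; adjusted p = 0.0737), although without chondrocyte replicate 1 the adjusted p was 0.0267. The other 7 hnRNP genes without a call, Hnrnpa1, Hnrnpa3, Hnrnpc, Hnrnpd, Hnrnph2, Hnrnph3 and Hnrnpu, had log2 differences of 0.02 to 0.28. Leaving out 1 library called Hnrnpa1 and Hnrnpd (adjusted p = 0.0259 and 0.0152 without chondrocyte replicate 2), Hnrnpu (0.0227 without chondrocyte replicate 1) and Hnrnpa3 (0.0443 without chondrocyte replicate 3) higher. Median-of-ratios scaling called Hnrnpc, Hnrnph2 and Hnrnph3 lower, at -0.37, -0.30 and -0.36. Some hnRNP genes, Hnrnpa1 among them, have near-identical pseudogene copies, and no source used here says how reads shared between copies were counted. The summed Srsf level divided by the summed Hnrnp level, which no scaling can move, was 0.330, 0.356 and 0.349 in osteoblasts and 0.491, 0.433 and 0.463 in chondrocytes. This ratio was chosen after the values had been seen and is given without a test.

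Shares of transcripts within a gene do not depend on library scaling, and for several members the transcript mix was called where the summed level as deposited was not. No source used here says how reads were divided between the transcripts of a gene, so these values rest on the authors' assignment. The test used log2 of a transcript's RPKM over that of its gene's other transcripts. Of 69 member transcripts in 23 genes, 13 were called in 8 genes, with adjusted p under 0.05 over all 3036 transcripts. In a gene with 2 transcripts the ratios mirror each other and make 1 comparison. Both transcripts were called for Ptbp1, Srsf1, Srsf3, Mbnl2 and Ptbp3, so the 13 calls are not independent. Over all genes 14.6% of transcripts were called, and 19.0% of 1255 genes had at least 1 call.

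Srsf3, which encodes the smallest SR protein, summed to 46.1 ± 2.94 RPKM in osteoblasts and 45.8 ± 6.74 RPKM in chondrocytes. It was not called as deposited, and was called lower under median-of-ratios scaling, at -0.42 (adjusted p = 0.00524). Its coding transcript (NM_013663, coding length 492 bases) had 31.1, 30.1 and 29.2 RPKM in osteoblasts and 14.8, 12.3 and 18.2 RPKM in chondrocytes. The transcript with the poison exon printed above (NR_036613, annotated for NMD) had 13.9, 19.3 and 14.6 RPKM in osteoblasts and 33.2, 26.0 and 33.1 RPKM in chondrocytes. Neither transcript overlapped between the groups, and they went in opposite directions. The poison-exon form made up 34.4% ± 4.19 of Srsf3 RPKM in osteoblasts and 67.2% ± 2.40 in chondrocytes, a log2 ratio difference of -1.96 ± 0.20 (adjusted p = 0.000629). Tested singly, the coding transcript was 2.00-fold higher in osteoblasts (adjusted p = 0.000694) and still higher under median-of-ratios scaling, by 0.55 (adjusted p = 0.00293).

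Srsf1 showed the same order. Its transcript with the kept intron (NM_001078167, coding length 603 bases) is annotated as protein-coding and not for NMD. That transcript took 23.6, 27.1 and 28.0% of Srsf1 RPKM in osteoblasts and 59.8, 58.6 and 52.7% in chondrocytes. The shares were far apart, and the log2 ratio difference was -1.88 ± 0.19 (adjusted p = 0.000629). The transcript that removes the intron (NM_173374, coding length 744 bases) had 16.0, 17.0 and 15.0 RPKM in osteoblasts and 4.92, 4.54 and 5.53 RPKM in chondrocytes, and was 3.21-fold higher. The form with the kept intron averaged 5.71 ± 0.702 RPKM in osteoblasts and 6.64 ± 0.620 RPKM in chondrocytes and was not called singly (adjusted p = 0.204), though it was called lower under median-of-ratios scaling, at -0.57. The intron-removed transcript carried the higher Srsf1 level in osteoblasts.

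Srsf7 gave a weaker difference of the same kind. Its poison-exon transcript (NR_036615) took 45.1, 48.1 and 49.9% of the gene's RPKM in osteoblasts and 67.5, 57.1 and 67.4% in chondrocytes. The groups did not overlap and the log2 ratio difference was -0.96 (adjusted p = 0.0247). The call was lost without osteoblast replicates 1 or 2 (adjusted p = 0.0823 and 0.0688) and without chondrocyte replicates 1 or 3 (adjusted p = 0.0864 and 0.0841). Another noncoding entry, Srsf9 NR_036616, took 1.28% in osteoblasts and 3.50% in chondrocytes and was not called.

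**Figure D3:**
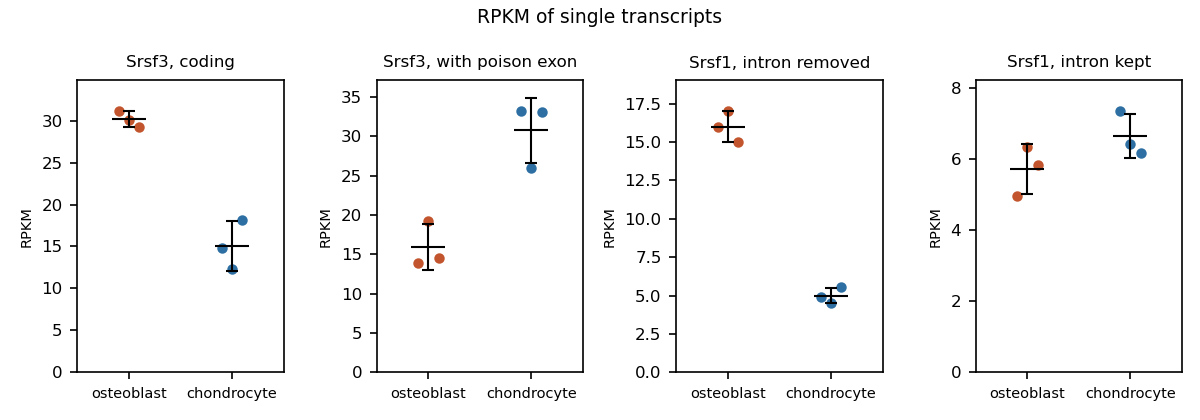
RPKM of single transcripts in each library, osteoblasts left and chondrocytes right, with mean ± SD (n = 3 each). The Srsf3 coding transcript stands at 30.1 against 15.1 RPKM and the poison-exon transcript at 15.9 against 30.8 RPKM, while the Srsf1 form with the kept intron overlaps between the groups.

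Ptbp1 is known in forms that differ by an exon in the linker between the second and the third of its RNA-binding domains. The transcript that includes the 78-base exon printed above (NM_001077363, coding length 1665 bases) took 63.3, 59.3 and 59.9% of Ptbp1 RPKM in osteoblasts and 37.7, 40.3 and 39.5% in chondrocytes. The transcript without it (NM_008956, coding length 1587 bases) made up the rest, so the major form differed between the cell types. The log2 ratio difference was 1.27 ± 0.17 (adjusted p = 0.00225), and it was called with every library left out in turn.

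Mbnl2, whose summed level was not called, also changed its mix. The transcript with the 54-base exon (NM_175341) took 9.5, 7.8 and 8.3% in osteoblasts and 19.3, 20.3 and 16.1% in chondrocytes. Inclusion was lower in every osteoblast library, with a log2 ratio difference of -1.26 ± 0.23 (adjusted p = 0.00914). In the paralog MBNL1 an exon of this length is known to take part in nuclear localization of the protein. For Mbnl1 itself the adjusted p of 6 tested transcripts was 0.0663 to 0.804.

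Qk transcripts end in different exons, which give the Quaking protein tails that set its place in nucleus or cytoplasm. The main transcript, NM_001159517 with 341 codons, had 23.6 ± 1.07 RPKM in osteoblasts and 22.8 ± 0.605 RPKM in chondrocytes. A minor transcript, NM_001159516 with 319 codons, had 1.31, 1.68 and 1.28 RPKM in osteoblasts and 0.230, 0.324 and 0.187 RPKM in chondrocytes. Its share was 5.48% ± 1.00 in osteoblasts and 1.01% ± 0.317 in chondrocytes. It passed the filters on its osteoblast values alone, which fixes its direction, so its call among the 13 is given as a description only (log2 ratio difference 2.12 ± 0.33). These low values rest on far fewer reads than those of the main transcript.

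The last calls were Hnrnpa3 NM_198090 and the Ptbp3 transcripts. The Hnrnpa3 transcript took 27.6% ± 5.49 of its gene in osteoblasts and 13.6% ± 1.55 in chondrocytes (adjusted p = 0.0145), and its adjusted p was 0.0523 without chondrocyte replicate 3. Ptbp3 NM_144904 took 8.55% ± 1.55 in osteoblasts and 15.2% ± 1.42 in chondrocytes (adjusted p = 0.0383), and NM_178164 held the rest. The NM_144904 call was lost with each of the 6 libraries left out, at adjusted p of 0.0505 to 0.120. The NM_178164 call was kept only without osteoblast replicate 1 (adjusted p = 0.0495).

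**Figure D4:**
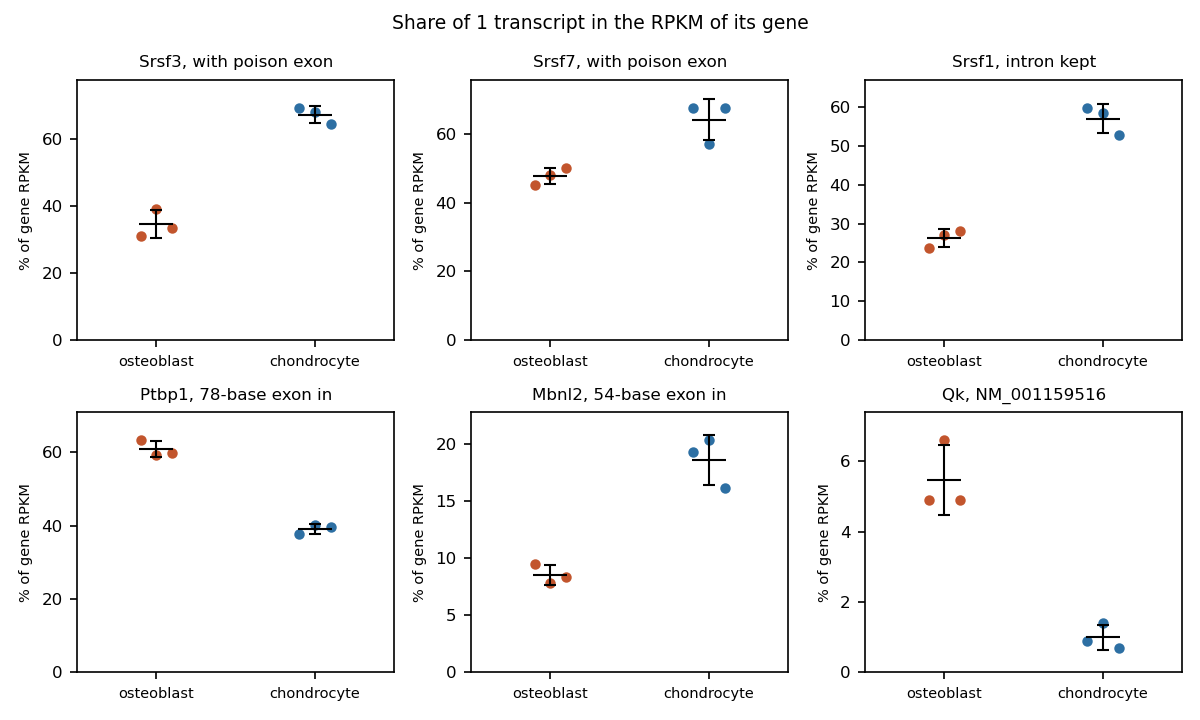
Share of 1 transcript in the RPKM of its gene, as a percentage, in each library, osteoblasts left and chondrocytes right, with mean ± SD (n = 3 each). The poison-exon and kept-intron forms of Srsf3, Srsf7 and Srsf1 and the Mbnl2 exon lie lower in osteoblasts, and the Ptbp1 exon and the minor Qk transcript lie higher.

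Genes whose alternative exons are known targets of these regulators were read the same way, from a list of 35 symbols of which 16 genes with 58 transcripts could be tested. Over all genes 14.6% of transcripts were called, and 19.0% of genes had a call. In this list calls fell on 11 transcripts (19%) in 4 genes (25%), Fn1, Col2a1, Runx2 and Tpm1. Of these, Fn1 NM_001276408 and NM_001276409 and Tpm1 NM_001164253 passed the filter on shares through 1 cell type alone, which fixes their direction. For Col2a1, NM_031163 took 6.64% ± 2.58 in osteoblasts and 45.8% ± 1.07 in chondrocytes. Its mean was 1.96 RPKM in osteoblasts and 17200 RPKM in chondrocytes, so the osteoblast share rests on far fewer reads. For Fn1, which encodes fibronectin, NM_001276411 took 12.1% ± 0.364 in osteoblasts and 23.4% ± 0.294 in chondrocytes. For Tpm1, a tropomyosin gene, NM_024427 took 81.8% ± 0.342 in osteoblasts and 51.2% ± 11.9 in chondrocytes. Skeletal muscle markers summed to 2.01 to 2.44 RPKM in osteoblasts and 9.71 to 40.7 RPKM in chondrocytes, with 9 of 13 markers below 0.1 RPKM in every library. Tnnt3 carried nearly all of the chondrocyte sum, with 0.915, 0.999 and 0.697 RPKM in osteoblasts and 13.1, 40.1 and 9.16 RPKM in chondrocytes, while Tnnt1 averaged 0.654 RPKM in osteoblasts and 0.0405 RPKM in chondrocytes. Ckm was listed at 0.0001 RPKM in every library. The part of muscle RNA in the Tpm1 result was not tested. Fgfr1, Fgfr2, Fgfr3, Pkm, Vegfa, Ctnnd1, Enah and Picalm had no transcript called. For Fgfr2, NM_010207 took 82.6% ± 0.252 in osteoblasts and 81.7% ± 1.94 in chondrocytes.

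The rest of the splicing machinery was read from 5 lists of 126 genes, of which 112 were tested. As deposited 74 were higher in osteoblasts, 5 lower and 33 not called, where 55.5% of all genes were higher and 13.5% lower. Under median-of-ratios scaling 37 were higher and 28 lower, where 33.1% and 29.0% of all genes were. The Sm and LSm proteins, which form rings on the small nuclear RNAs, were higher for all 13 tested genes, and for 9 of them also under median-of-ratios scaling. Lsm4 had 43.5, 40.9 and 34.2 RPKM in osteoblasts and 10.8, 12.2 and 12.0 RPKM in chondrocytes, far apart at 3.39-fold. Lsm7 and Lsm2 had log2 differences of 1.38 and 1.25. Of 19 proteins of the U1 and U2 particles and U2AF, which find the splice sites, 16 were higher and 1 lower, and under median-of-ratios scaling 10 were higher and 3 lower. Sf3b5, Snrpc and Sf3a3 led with log2 differences of 1.05, 0.91 and 0.91, and Sf3b1, which helps to hold the branch site, was the lower one with 28.6 ± 1.13 RPKM in osteoblasts and 38.4 ± 2.30 RPKM in chondrocytes. Of 27 tri-snRNP and catalytic proteins 19 were higher, with Eftud2, Dhx16 and Crnkl1 at 0.88 to 0.96, and under median-of-ratios scaling 7 were higher and 6 lower.

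As deposited, the kinases that phosphorylate SR proteins were called in both directions. Of 19 SR kinases and SR-related genes 7 were higher and 3 lower, where 55.5% and 13.5% of all genes were. Under median-of-ratios scaling 1 was higher and 10 lower, where 33.1% and 29.0% of all genes were. Clk1, a nuclear SR protein kinase, had 22.5, 33.4 and 18.5 RPKM in osteoblasts and 76.0, 62.4 and 55.1 RPKM in chondrocytes. Its relative Clk4 had 7.61, 8.93 and 6.43 RPKM in osteoblasts and 16.3, 14.6 and 14.4 RPKM in chondrocytes. Both were lower in every osteoblast library, by log2 differences of -1.37 ± 0.22 (adjusted p = 0.00111) and -0.91 ± 0.13 (adjusted p = 0.000555), and Son, a large speckle protein, by -0.42. Clk3, Srpk1 and Scaf1 were called higher as deposited, at 0.62, 0.55 and 0.65, and of these Scaf1 stayed called under median-of-ratios scaling. The kinases Clk3 and Srpk1 were then at 0.20 and 0.15 and not called (adjusted p = 0.0504 and 0.21, limma).

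Among 35 other splicing regulators 19 were higher and 1 lower, where 55.5% and 13.5% of all genes were. Under median-of-ratios scaling 10 were higher and 10 lower, where 33.1% and 29.0% of all genes were. Celf5, a Celf gene known mainly from brain, had 5.38, 5.03 and 4.40 RPKM in osteoblasts and 0.156, 0.176 and 0.152 RPKM in chondrocytes. It passed the filter on its osteoblast values alone, which fixes its direction. The same holds for Rbm38, with 3.14 RPKM in osteoblasts and 0.271 RPKM in chondrocytes, and for Khdrbs3, with 3.87 RPKM in osteoblasts and 0.544 RPKM in chondrocytes. Rbm39, an SR-like protein, was the lower one, with 44.1 ± 2.70 RPKM in osteoblasts and 65.2 ± 4.72 RPKM in chondrocytes. Of the 112 tested other splicing genes, 5 were lower under all 5 scalings, where 13.5% of all genes were. These were Sf3b1, Clk1, Clk4, Son and Rbm39. Higher under all 5 were 35 of the 112, where 32.1% of all genes were.

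**Figure D5:**
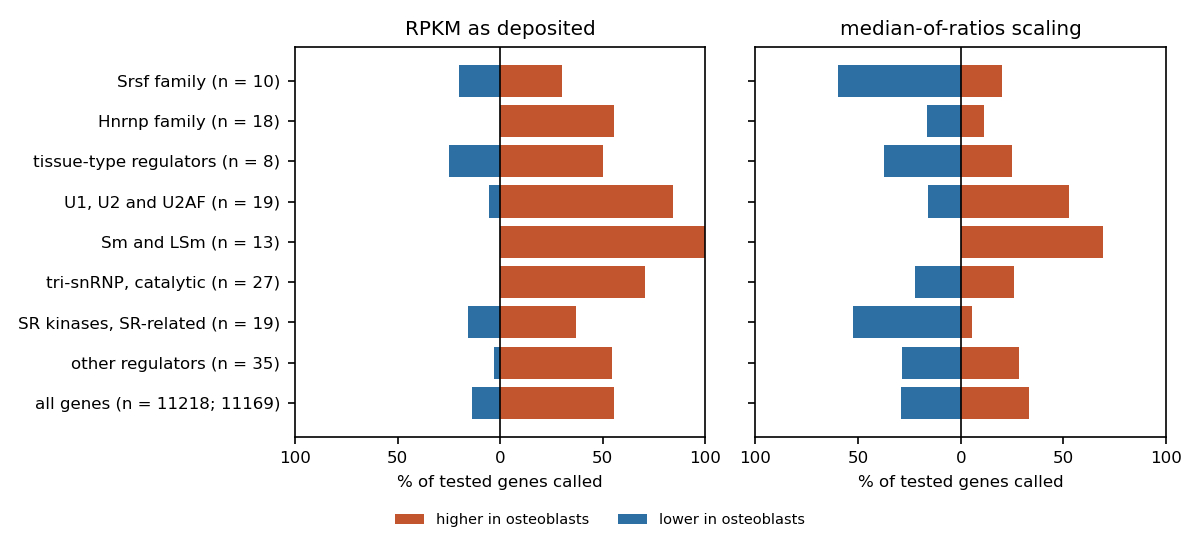
Percentage of tested genes called higher (right of 0) and lower (left of 0) in osteoblasts than in chondrocytes, with RPKM as deposited and under median-of-ratios scaling, for member families, the lists of other splicing genes and all tested genes. Of all genes 55.5% and 33.1% were higher under the 2 scalings; Sm and LSm genes are higher for 13 of 13 and 9 of 13, and Srsf genes for 3 of 10 and 2 of 10.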

How the data were processed

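The authors deposited 1 table of RPKM per RefSeq transcript, 1 column per library, all 6 of which were used. Per the submitters' processing notes the build was mm9 and TopHat2 2.0.8 was used; no counting program is named there. The table holds no counts, and its lowest value is 0.0001. Depth was estimated from value steps with GENCODE M21 lengths: 51.8% of 16298 low values lay within 0.05 of whole reads, with depth fitted to the same values. Counts were not recovered, so no count test was run.

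RPKM was summed per symbol. Genes with at least 1 RPKM in at least 3 of 6 libraries were tested, two-sided, by fitting log2(RPKM + 1), a scale that understates changes of low genes, in limma (3.58.1, R 4.3.3) with variance trend and robust moderation. The other scalings were median-of-ratios, TMM (computed without weights), upper-quartile, and the sum of RPKM without the 100 genes of highest mean. Transcript ratios used a pseudocount of 0.1, genes of at least 5 RPKM in all libraries and mean shares above 2%. The fits were checked on simulated data without a shift in library scale, so that check does not bear on the choice of scaling.

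The rule for members read gene symbols and no measured value. Even so, members, lists and alternatives were chosen with earlier results of these data known. The naming rule takes every tested tissue-type regulator; Srsf, Hnrnp and Tra2 genes called alike under the deposited and median-of-ratios scalings; the 5 most abundant members; untested members; up to 3 called genes each way per other list; and the 10 largest transcript ratios. Other members were named to account for all 47. Testing each transcript singly was added after seeing the data.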

Additional observations from a re-analysis of the deposited data

How the results depend on the processing

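As deposited 17 members were higher and 4 lower in osteoblasts. There were 6 higher and 14 lower under median-of-ratios scaling, 6 and 15 under TMM, 6 and 13 under upper-quartile scaling, and 6 and 13 when libraries were scaled to the sum of RPKM without the 100 genes of highest mean. The members' median difference of 0.28 became -0.14, -0.14, -0.15 and -0.11. Of the other splicing genes 74 were higher and 5 lower as deposited, against 37 and 28, 36 and 28, 37 and 27, and 43 and 24 under the same 4 scalings in that order. All genes shifted with them, by -0.39 to -0.35. Shares of all genes called were counted for the deposited and median-of-ratios scalings, but not for any other setting in this section. Members at or above 0 as deposited and below it under the other scalings are given with the value shared by median-of-ratios and TMM, then the upper-quartile value, then the value without the 100 highest genes. They were Hnrnpa1 at -0.26, -0.26 and -0.22, Hnrnpa2b1 at -0.11, -0.12 and -0.07, Hnrnpa3 at -0.15, -0.16 and -0.11, Hnrnpc at -0.37, -0.38 and -0.33, Hnrnpd at -0.14, -0.14 and -0.10, Hnrnph2 at -0.30, -0.31 and -0.26, Hnrnph3 at -0.36, -0.36 and -0.32, Hnrnpr at -0.07, -0.07 and -0.03. Further ones were Hnrnpu at -0.16, -0.17 and -0.12, Hnrnpul1 at -0.04, -0.05 and 0.00, Mbnl2 at -0.43, -0.44 and -0.39, Ptbp3 at -0.07, -0.07 and -0.03, Qk at -0.35, -0.35 and -0.31, Srsf3 at -0.42, -0.43 and -0.38, Srsf4 at -0.33, -0.34 and -0.29, Tra2a at -0.39, -0.39 and -0.35. Under the first 3 scalings only, Hnrnpk at -0.03 and -0.04 and Ptbp1 at -0.01 and -0.01 were below 0.

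With no filter on low values 9 members were higher, 2 lower and 3 of the other splicing genes lower. The cause was not tested. In the transcript ratio a pseudocount of 1 gave 20 called member transcripts in place of 13, and the other settings gave 9 to 14. With the transcript of highest RPKM in place of the sum, Srsf3 was at -0.91 and Hnrnpc at -0.11. With each library left out, 14 to 19 members were higher, 3 to 5 lower, and 9 to 12 member transcripts were called. The 6 genes that crossed 0 were Hnrnpc, which ranged from -0.05 to 0.16, Hnrnph3 from -0.14 to 0.14, Mbnl2 from -0.08 to 0.15, Srsf3 from -0.11 to 0.10, Srsf7 from -0.22 to 0.18 and Tra2a from -0.07 to 0.15.

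Same-numbered libraries did not deviate together (r of 0.079, 0.010 and -0.155), and not every library correlated best with its own number, so the replicate numbers were not taken as pairs. With the replicate number as a block, 16 members were higher and 3 lower, 12 member transcripts were called, and Ptbp3, Srsf5 and both Ptbp3 transcripts lost their calls (adjusted p of 0.0635, 0.0733, 0.0882 and 0.0851). Depth limits the members under 1 RPKM and minor transcripts such as Qk NM_001159516.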
